A study of Homo sapiens with 24 samples.

Results

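A group of 8 peptidases that cut signaling peptides, most of them known at the cell surface, was examined in cultures of human sensory neurons. They are MME, ECE1, ECE2, ACE, DPP4, ANPEP, ENPEP and CPM, and each symbol had 1 entry among the 36468 entries of the deposited count table. The 8 genes were taken by symbol as a group that acts on kinins, substance P, CGRP (the calcitonin gene-related peptide) and related peptides such as the angiotensins. Not each enzyme cuts each of these. MME was in addition chosen on its measured response to IL-4 + IL-13 in these libraries, so its levels and differences between treatments are described here without a test. The other 7 genes were tested in a model fitted to all 29377 entries that passed a filter on low counts, and all 8 passed it. These 7 and the further gene lists were also chosen with earlier results of these data known, which the p-values do not take into account.

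The cultures were differentiated from H9WAO9, 1 human embryonic stem cell line of WT genotype, through vagal neural crest spheroids to sensory neurons. Mature cultures received TGF-β (2 ng/ml), IL-4 (10 ng/ml) with IL-13 (3 ng/ml), or vehicle (0.1% bovine serum albumin in PBS) for 5 days, and the remaining group received IL-6, for which the labels give neither dose nor time. Each of the 6 batches of differentiation gave 1 library per group, so that the 24 libraries were paired by batch. Replicates are batches of a single line, with between 33342682 and 39817784 counts per library. RNA came from whole cultures that also contained other cells, and in such bulk libraries fewer cells of a type and less RNA per cell cannot be told apart.

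Peptide signals of sensory neurons are ended mainly by enzymes on the surface of nearby cells, because neuropeptides are not taken back up as small transmitters are. Neprilysin, the product of MME, cuts substance P, bradykinin and natriuretic peptides, and angiotensin-converting enzyme, the product of ACE, cuts bradykinin and substance P and makes angiotensin II. In the airways, where vagal sensory fibers release substance P and CGRP, both enzymes are known for limiting the action of substance P.

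All 10 neuron markers examined were detected in every library, with a median raw count of 29308 for TUBB3 and 50035 for STMN2. All 10 mesenchymal markers were detected as well, with a median of 89101 for COL1A1. Summed over its 10 genes, the neuron list had a log2 level with a median of 17.81 in vehicle (15.95 to 18.57), 17.59 in IL-6 (16.27 to 18.35), 17.61 in TGF-β (15.76 to 18.64) and 17.57 in IL-4 + IL-13 (16.52 to 18.47). Of the 4 genes looked up as IL-4 + IL-13 targets, CISH, CCL26 and IL13RA2 rose under that treatment. Their log2 fold changes in edgeR were 4.40, 7.86 and 1.31, and SOCS1 stood at 0.58 (adjusted p = 0.249). The genes were looked up with earlier results of these data known, so these values are a description and not a check of the treatment. None of the 4 genes looked up for TGF-β and none of the 3 looked up for IL-6 was called under its own cytokine. The vehicle libraries of batches 2 and 4 stood apart from their batches. After the group mean was removed, the vehicle library of batch 2 had a mean correlation across genes of 0.036 with the other libraries of batch 2 and 0.428 with those of batch 4, and that of batch 4 had 0.153 with its own batch and 0.402 with batch 2. For the members and for the called genes, values against vehicle without these libraries are given beside the results or collected after the members. The uncalled genes of the other lists are given with all libraries only.

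MME lies on chr3:155024202-155183729 of GRCh38.p14. RefSeq lists several starts for it, and 4 windows of 300 bases, each from 250 bases before to 50 bases after a start, were available. They were searched for TTCNNNNGAA, the spacing that STAT6, the transcription factor downstream of the IL-4 receptor, is known to prefer. The letters read the same on both strands. The stretch is shown because MME was the member that differed with IL-4 + IL-13, and that of CSN1S1, a milk casein gene, because CSN1S1 was among the genes most like MME in these libraries. The capitals mark the motif.
MME, window 3: agcctccaacTTCTCCCGAAtcccactggt
CSN1S1: ttctcagaatTTCCTGGGAAaggaattgga
The MME stretch is chr3:155079974-155080003 on the plus strand, 27 bases before the start in window 3, and in GENCODE v44 the motif lies within 2 annotated exons of other MME transcripts. The CSN1S1 stretch is chr4:69930912-69930941 on the plus strand, 146 bases before its start. No match was found in the other 3 MME windows or in those of ECE1, ACE, DPP4, ANPEP, ENPEP, CPM, CD44, CCL26 and KCNJ2. Among all 35116 windows of the RefSeq table, 6.44% held the motif, and 7.8% of the 27305 genes held it in at least 1 window. MME had 4 windows, more than most genes, and each window is a further chance of a match. The share per gene is therefore too low a background for MME. A match describes letters in a window and not a binding site.

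MME had more RNA with IL-4 + IL-13 than with vehicle in all 6 batches. In vehicle the normalized count of MME, the raw count divided by the size factor of its library, was 355, 381, 166, 227, 344 and 304 in batches 1 to 6. With IL-4 + IL-13 it was 2777, 3098, 8898, 9906, 7057 and 1984 in the same order. The lowest of the treated libraries lay above the highest vehicle library, so the groups did not overlap. On the scale of log2(normalized count + 1), the level of MME was 8.16 ± 0.46 in vehicle and, with IL-4 + IL-13, it reached 12.20 ± 0.98 (SD over 6 batches). The log2 fold change fitted by edgeR was 4.33, and 4.34 when the vehicle libraries of batches 2 and 4 were left out.

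The size of the MME difference varied between batches. Within batches 1, 2 and 6 the normalized count was 7.83, 8.14 and 6.53 times that of vehicle, against 53.6, 43.6 and 20.5 times in batches 3, 4 and 5. Batches 3 and 4 combined the lowest vehicle counts of MME with the highest IL-4 + IL-13 counts. The summed neuron markers, averaged over the 4 libraries of a batch on the log2 scale, were 16.13, 17.67 and 17.06 in batches 1, 2 and 6, and 18.50, 18.30 and 17.68 in batches 3, 4 and 5. The batches with the larger MME difference were thus those with the higher neuron sums, although batches 2 and 5 differed little in that sum. The summed pluripotent markers, which had low counts, split the batches alike. They stood at 5.78, 6.04 and 5.30 in batches 1, 2 and 6, and at 6.51, 6.29 and 6.35 in batches 3, 4 and 5. The split was thus not particular to the neuron markers. The part of culture composition in this was not tested. The folds of batches 2 and 4 also rest on the vehicle libraries that stood apart, each of which correlated better with the other's batch than with its own. Whether their batch labels had been exchanged was not tested. The IL-4 + IL-13 library of batch 4 also correlated better with another batch, at 0.519 with batch 3 and 0.315 with its own. The TGF-β library of batch 4 did so too, at 0.559 with batch 3 and 0.391 with its own. Set against the highest and the lowest of the 6 vehicle libraries, the IL-4 + IL-13 count was 8.14 to 18.7 times in batch 2 and 26.02 to 59.7 times in batch 4.

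**Figure D1:**
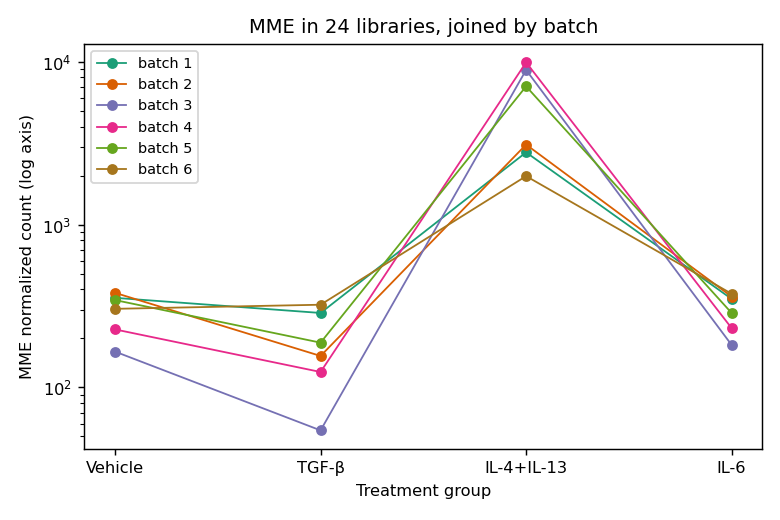
Normalized counts of MME (log axis) in the 4 treatment groups, with 1 point per library and lines joining the 4 libraries of a batch. The 6 IL-4 + IL-13 libraries sit between 1984 and 9906, above every library of the other groups, and batches 3 and 4 form the steepest lines.

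With TGF-β, MME had 286, 156, 54.4, 124, 188 and 322 normalized counts in batches 1 to 6, mostly fewer than with vehicle. It was below vehicle in 5 of 6 batches, by 0.31 to 1.59 on the log2 scale, and 0.08 above it in batch 6. The level was 7.35 ± 0.92 (SD, n = 6) and the ranges of TGF-β and vehicle overlapped. The fitted log2 fold change was -0.68, and -0.61 without the vehicle libraries of batches 2 and 4.

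With IL-6, MME lay close to vehicle in each batch, with normalized counts of 349, 361, 182, 231, 286 and 376. The level was 8.18 ± 0.42 (SD, n = 6), above vehicle in 3 batches and below it in 3. The differences within batches ran from -0.26 to 0.31, and the fitted log2 fold change was 0.012, and 0.081 without the vehicle libraries of batches 2 and 4. The order of MME levels was therefore TGF-β, vehicle, IL-6 and IL-4 + IL-13, in which the first 3 groups overlapped and the last stood clear. Against TGF-β the fitted log2 fold change of IL-4 + IL-13 was 5.01, and against IL-6 it was 4.31. The 3 comparisons with vehicle share its 6 libraries, and the 3 with IL-4 + IL-13 share that group, so they are not separate observations.

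MME ranked differently among the peptidases with IL-4 + IL-13. For a comparison between genes, counts were divided by the length of the merged GENCODE v44 exons and scaled to a sum of 1000000 per library. On this scale the levels in vehicle were 49.6 ± 15.6 for ECE1, 28.6 ± 12.5 for ACE and 4.61 ± 1.26 for MME (SD, n = 6 each). The sum of ECE2 and its readthrough entry, explained with ECE2, stood at 4.21 ± 1.42. ANPEP followed with 2.32 ± 2.36, ENPEP with 1.93 ± 0.19, CPM with 0.97 ± 0.29 and DPP4 with 0.42 ± 0.20. In this order ECE1 and ACE overlapped in their ranges, as did the neighbors from MME to ENPEP and the pair of CPM and DPP4, while ACE stood clear of MME and ENPEP of CPM. With IL-4 + IL-13, MME stood at 86.7 ± 52.3 (32.6 to 151), above the mean of ECE1 at 36.3 ± 8.81 (23.5 to 46.3), with ranges that overlapped.

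ECE1 encodes endothelin-converting enzyme 1, which releases endothelin-1 from its precursor and also cuts internalized substance P and CGRP. In vehicle its normalized count was 3543, 3252, 2424, 2144, 1742 and 1242 in batches 1 to 6, and with IL-4 + IL-13 it was 1754, 1472, 2230, 2245, 1712 and 1056. ECE1 was lower with IL-4 + IL-13 in 5 of 6 batches, and the groups overlapped. The log2 fold change was -0.45 ± 0.19 (SE), with an adjusted p of 0.483 in edgeR's quasi-likelihood test with Benjamini-Hochberg adjustment over all entries, which is the test behind every adjusted p given here unless another is named. With TGF-β the log2 fold change was 0.20 (adjusted p = 0.929). Set against TGF-β, ECE1 with IL-4 + IL-13 was lower in all 6 batches, by 0.26 to 1.37 on the log2 scale. That log2 fold change was -0.65 ± 0.19 (SE, adjusted p = 0.0788), short of the threshold and of the fold of 1 on the log2 scale that a call also required. DESeq2's Wald test gave an adjusted p of 0.0199 there, past the threshold but again short of the fold.

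ECE2 encodes a related enzyme of neuroendocrine cells that works at acidic pH. Its gene (chr3:184276022-184293031) lies within the readthrough entry EEF1AKMT4-ECE2, and the counts fell on one entry or the other. In 21 of 24 libraries exactly 1 of the entries was above 0, ECE2 being listed at 0 in 8 libraries and the readthrough entry in 13. The sum of both entries was steadier, between 23 and 220 raw counts per library with a median of 129. The log2 fold change of ECE2 alone was 1.20 with TGF-β, 0.53 with IL-4 + IL-13 and -0.89 with IL-6, with standard errors of 1.27, 1.28 and 1.24. For the sum, a reading added after the counts were seen, it was -0.36 ± 0.22, -0.080 ± 0.22 and -0.083 ± 0.22 (SE), with adjusted p values of 0.821, 0.952 and 0.962 in edgeR. The value for ECE2 alone thus depended on the entry to which reads had been assigned, and the sum did not pass the test against vehicle.

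**Figure D2:**
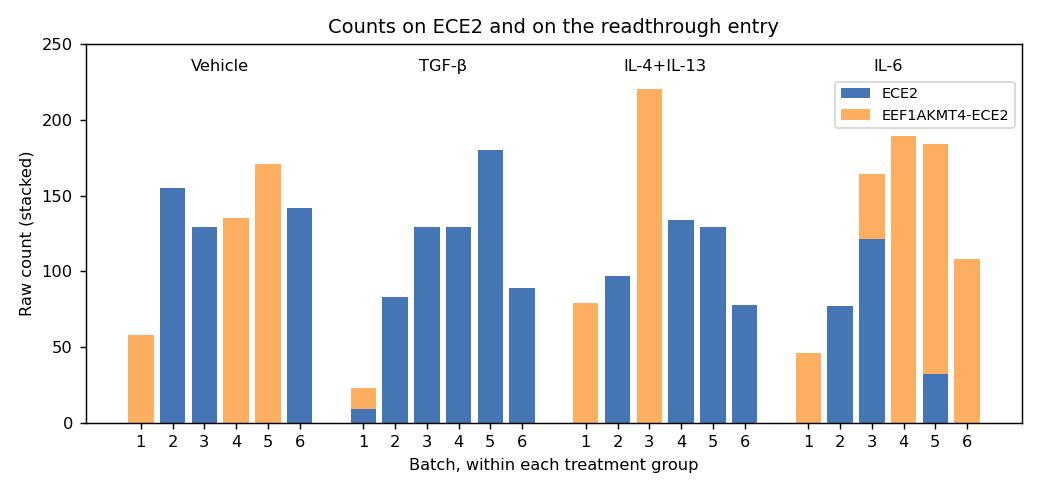
Raw counts on ECE2 (blue) and on the readthrough entry EEF1AKMT4-ECE2 (orange), stacked, for the 6 batches of each group. Most bars have a single color, with both colors in 3 of 24 libraries, while the total stays between 23 and 220.

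ACE, the angiotensin-converting enzyme gene, varied widely between batches. Its normalized count in vehicle was 2368, 898, 1436, 1402, 2463 and 819 in batches 1 to 6, and with IL-4 + IL-13 it was 1218, 395, 1442, 1595, 2308 and 1576. It was higher than vehicle in 3 batches and lower in 3. The log2 fold change was -0.20 ± 0.26 with IL-4 + IL-13, 0.11 ± 0.26 with TGF-β and -0.34 ± 0.26 with IL-6 (SE), with adjusted p values in edgeR of 0.868, 0.980 and 0.850. Within batch 2 the vehicle library had 898 normalized counts and the 3 treated libraries 243 to 395. Without the vehicle libraries of batches 2 and 4, the log2 fold change with IL-4 + IL-13 was 0.085, the opposite sign and again not called.

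DPP4 encodes dipeptidyl peptidase 4, which removes pairs of residues from the start of peptides such as substance P and the incretins. It was the lowest of the 8 genes per length. Its raw count ran from 25 to 73 in vehicle and from 13 to 52 with IL-4 + IL-13. DPP4 was below vehicle in 5 of 6 batches with TGF-β, in 5 with IL-4 + IL-13 and in 4 with IL-6, and all ranges overlapped. The log2 fold changes were -0.56 ± 0.32, -0.86 ± 0.33 and -0.68 ± 0.32 (SE), with adjusted p values of 0.788, 0.404 and 0.850 in edgeR. These 3 values rest on the same 6 vehicle libraries.

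ANPEP encodes aminopeptidase N, which trims peptides from the amino end and shortens enkephalins, angiotensins and kinins. Its normalized count was 11.2, 226, 49.5, 65.1, 79.2 and 20.8 in the vehicle libraries of batches 1 to 6. With TGF-β it was 8.92, 34.5, 64.0, 73.7, 39.9 and 11.7. With IL-4 + IL-13 it was 44.2, 104, 140, 276, 165 and 22.8. The IL-4 + IL-13 libraries were above those of TGF-β in all 6 batches, although the groups overlapped because batches differed widely. Against TGF-β the log2 fold change was 1.68 ± 0.40 (SE), with an adjusted p of 0.0241 in edgeR, and ANPEP rose in that comparison.

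Against vehicle, the log2 fold change of ANPEP was 0.78 ± 0.40 with IL-4 + IL-13 and -0.89 ± 0.41 with TGF-β (SE), with adjusted p values in edgeR of 0.584 and 0.657. The vehicle library of batch 2, with 226 normalized counts, was the highest of its group and the only one above its IL-4 + IL-13 partner. When it was left out, the log2 fold change with IL-4 + IL-13 was 1.40 (adjusted p = 0.0178), past the threshold. When the vehicle libraries of batches 2 and 4 were both left out, a choice made after seeing the data, it was 1.23 (adjusted p = 0.0704), not past it. Against IL-6 ANPEP was higher with IL-4 + IL-13 in 6 of 6 batches, by 0.21 to 2.25 on the log2 scale, at a log2 fold change of 0.99 (adjusted p = 0.807). The call against TGF-β did not hold in every reading. Its adjusted p was 0.0849, 0.0644, 0.0890, 0.114 and 0.0632 without batch 1, 3, 4, 5 or 6, and 0.974 without batch in the model, at log2 fold changes of 1.54 to 1.84.

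ENPEP encodes aminopeptidase A, which converts angiotensin II to angiotensin III, and was the steadiest of the 8 genes. Its raw count was between 91 and 111 in vehicle and between 90 and 192 with IL-4 + IL-13. The level was 6.60 ± 0.18 in vehicle, 6.55 ± 0.30 with TGF-β, 6.88 ± 0.37 with IL-4 + IL-13 and 6.77 ± 0.24 with IL-6 (SD, n = 6 each). With IL-4 + IL-13 ENPEP was above vehicle in 5 of 6 batches, at a log2 fold change of 0.28 ± 0.15 (SE, adjusted p = 0.596 in edgeR).

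CPM encodes carboxypeptidase M, which removes a final arginine or lysine from kinins and so makes ligands of the B1 receptor. Its gene overlaps MDM2, which had 97928 counts in all, and with the strandedness not stated, reads in the overlap could not be told apart. Its raw count was low, between 16 and 72 per library over the 24 libraries. The log2 fold change of CPM was -0.20 ± 0.26 with TGF-β, 0.049 ± 0.26 with IL-4 + IL-13 and -0.34 ± 0.26 with IL-6 (SE), with adjusted p values in edgeR of 0.964, 0.980 and 0.850.

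**Figure D3:**
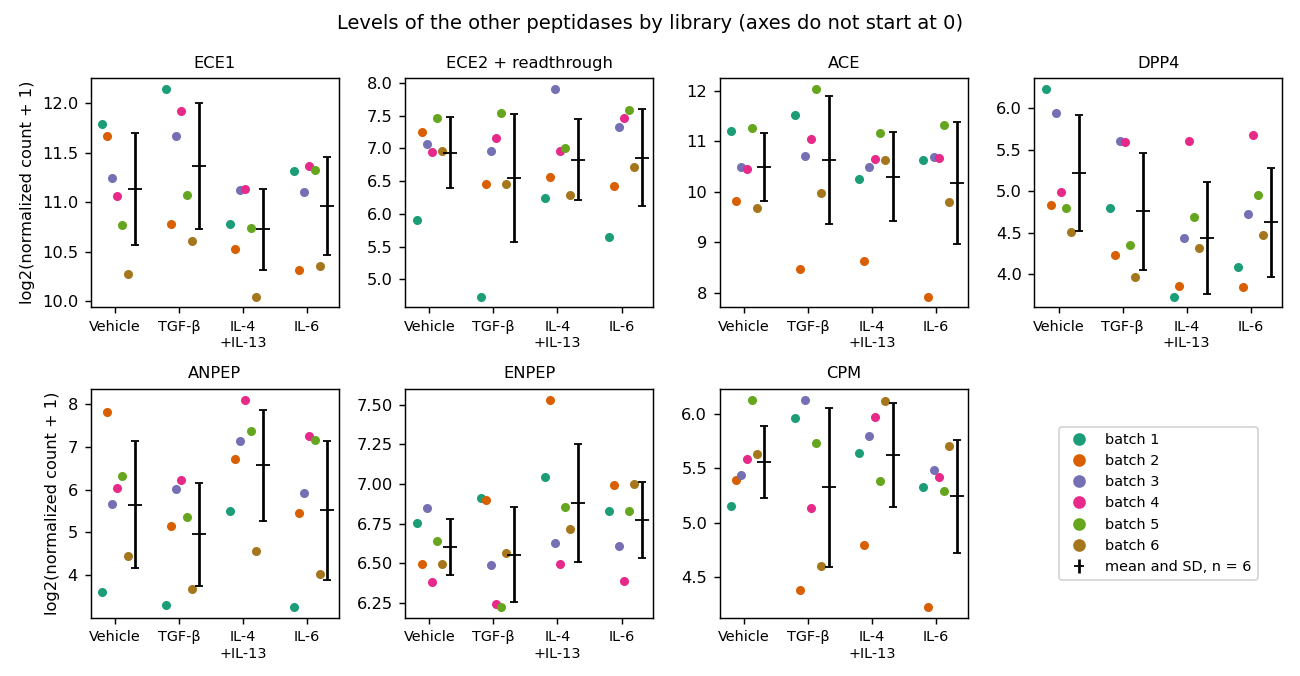
Levels of the peptidases other than MME, as log2(normalized count + 1), in each of the 24 libraries by group. Colors mark the 6 batches and black marks the mean with its SD (n = 6), and the batches are spread more widely than the group means differ, as for ANPEP, which lies at 3.61 to 7.83 in vehicle.

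Without the vehicle libraries of batches 2 and 4, a choice made after seeing the data, none of the 7 members other than MME was called against vehicle either. With IL-4 + IL-13 the log2 fold change was then -0.28 for ECE1, -1.10 for DPP4 (adjusted p = 0.204 in edgeR), 0.19 for ENPEP and 0.24 for CPM. With TGF-β it was 0.36 for ECE1, 0.39 for ACE, -0.78 for DPP4, -0.42 for ANPEP, -0.14 for ENPEP and -0.0094 for CPM. With IL-6 it was -0.041 for ECE1, -0.075 for ACE, -0.92 for DPP4, 0.23 for ANPEP, 0.084 for ENPEP and -0.16 for CPM. ECE2 alone stood at 0.79 with TGF-β, 0.13 with IL-4 + IL-13 and -1.04 with IL-6.

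The calls among the 7 peptidases other than MME were read against the whole table. A call required an adjusted p below 0.05 and a log2 fold change beyond 1. With TGF-β 0 of 7 were called, against 0.143% of all entries tested, and with IL-4 + IL-13 0 of 7, against 0.371%. With IL-6 0 of 7 were called, against 0% of all entries. At such shares a list of this size would hold no call in most cases, so the absence of calls is not particular to the peptidases. For IL-6 edgeR called 0 of 29377 entries while 1400 had an unadjusted p below 0.05 and DESeq2 called 120, none of them among the 7. In the direct comparisons, 1 of 7 (ANPEP) was called between IL-4 + IL-13 and TGF-β, against 1.18% of all entries, and 0 of 7 between IL-4 + IL-13 and IL-6, against 0.279%.

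An unadjusted p below 0.05 in edgeR was found for ANPEP with TGF-β, beside 7.29% of all entries, and for ECE1 and DPP4 with IL-4 + IL-13, beside 9.1%. With IL-6 none of the 7 had one, beside 4.77%. Between IL-4 + IL-13 and TGF-β it was found for ANPEP, ECE1 and ENPEP, beside 12.2% of all entries, and between IL-4 + IL-13 and IL-6 for ANPEP, beside 4.57%. DESeq2's Wald test made the same single call among the 7, with an adjusted p of 0.00168 for ANPEP against TGF-β. The median log2 fold change of the 7 was -0.060 with TGF-β, 0.049 with IL-4 + IL-13 and -0.34 with IL-6, beside medians of -0.012, -0.0077 and -0.013 over all entries. With IL-4 + IL-13, 4 of the 7 had values above 0, in the direction of MME, and 3 below.

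Several members differed between batches. In edgeR's test of the 5 batch terms, 4 of the 7 members other than MME were called, against 56.8% of all entries, a share near the background. These were ACE (adjusted p = 8.94e-05), ANPEP (9.52e-05), ECE1 (0.00320) and DPP4 (0.0303). MME did not pass this test, which covered all 24 libraries (adjusted p = 0.959). Over the 3 libraries of a batch that did not receive IL-4 + IL-13, its mean log2 level ran from 6.90 in batch 3 to 8.38 in batch 6. ACE was lowest in batch 2, at a mean log2 level of 8.71 over its 4 libraries, and highest in batch 5, at 11.45. ANPEP was lowest in batch 1, at 3.92, and highest in batch 4, at 6.91. For the sum of ECE2 and the readthrough entry the batch test gave an adjusted p of 0.000328, with the lowest level in batch 1. Batch 1 also had the lowest neuron marker sum, at 16.13, and the highest mesenchymal sum, at 18.27, and the part of these in the member levels was not tested.

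The genes whose pattern was most like that of MME were found by Pearson's r over the 24 libraries, after the mean of each batch had been removed, among 16896 entries that were neither members nor unnamed loci and had a mean normalized count of at least 10. They were CD44, a hyaluronan receptor, with an r of 0.97, CCL26, the chemokine eotaxin-3, with 0.95, CSN1S1 with 0.95, KCNJ2, an inward rectifier potassium channel, with 0.95, and IL13RA2, a receptor for IL-13, with 0.94. These points share libraries, batches and the 1 treatment that set MME apart, so the values are descriptive. Like MME, CD44 and IL13RA2 differed most from vehicle in batches 3 and 4, by 2.14 and 2.27 for CD44 and by 1.66 and 2.00 for IL13RA2 on the log2 scale. In batch 2, KCNJ2 differed by 0.14 and MME by 3.02. CSN1S1 was listed at 0 in all 6 vehicle libraries and had a level of 7.06 with IL-4 + IL-13, so that it passed the filter on the mean count through that group alone. CCL26 was near the floor in vehicle, at a mean level of 1.83 against 9.30 with IL-4 + IL-13. Its mean level was lower still with TGF-β and IL-6, so its r also rests mainly on the IL-4 + IL-13 group. Among the members, ANPEP had the highest r with MME, at 0.69, followed by ENPEP at 0.45 and CPM at 0.22, while ECE1 had -0.48, DPP4 -0.32, ACE -0.18 and ECE2 -0.09.

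**Figure D4:**
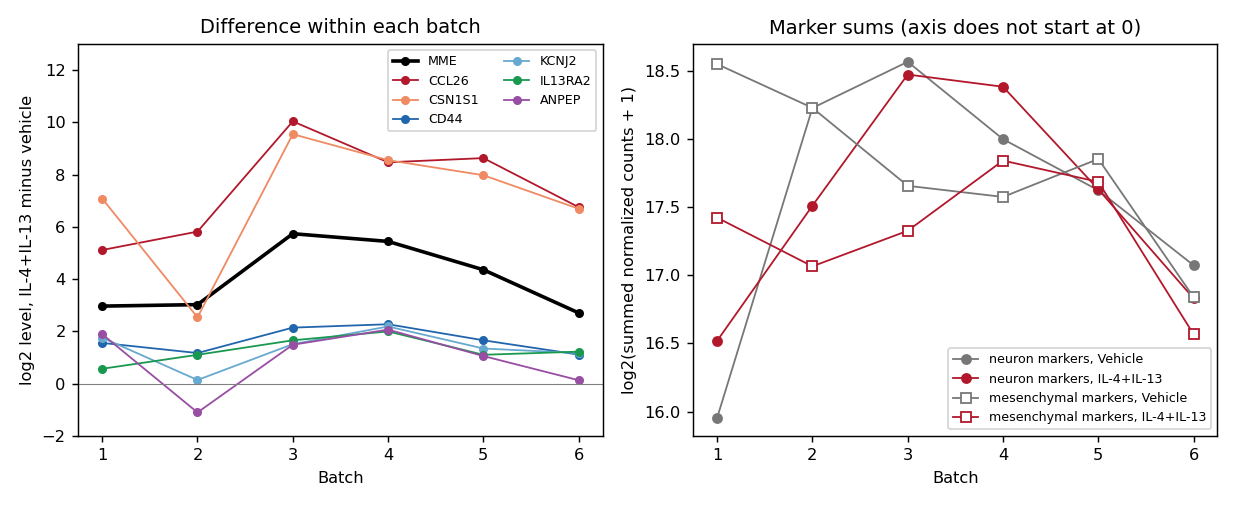
Left, differences in log2 level between IL-4 + IL-13 and vehicle within each of the 6 batches for MME, the 5 genes most like it and ANPEP. In this panel MME peaks at 5.74 in batch 3 and ANPEP falls below 0 in batch 2. Right, summed neuron markers (filled circles) and mesenchymal markers (open squares) as log2 of summed normalized counts in the same libraries.

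The further peptide-cutting enzymes, taken from a list of 34 genes of which 33 were tested, showed no call against vehicle. That held for each of the 3 treatments, against 0.143% of all entries with TGF-β, 0.371% with IL-4 + IL-13 and 0% with IL-6. At such shares a list of this size would hold no call in most cases, so the absence is not particular to these enzymes. The median log2 fold changes of the list were -0.059 with TGF-β, -0.044 with IL-4 + IL-13 and -0.057 with IL-6. FAP, a fibroblast peptidase related to DPP4, was the single call between IL-4 + IL-13 and TGF-β, against 1.18% of all entries, and it fell. It was lower in all 6 batches, with 80.4 to 373 normalized counts (median 179) with IL-4 + IL-13 and 300 to 1272 (median 516) with TGF-β. The ranges overlapped and the log2 fold change was -1.60 (adjusted p = 0.0220 in edgeR). Against vehicle FAP stood at 0.91 with TGF-β (adjusted p = 0.567) and -0.69 with IL-4 + IL-13 (adjusted p = 0.624). The call of FAP was lost without batch 1, 3, 4 or 5 (adjusted p of 0.0989, 0.117, 0.0959 and 0.0603) and without batch in the model (0.769). Without the vehicle library of batch 2 the TGF-β value of FAP against vehicle was 1.44 (adjusted p = 0.0183), past the threshold, and without those of batches 2 and 4 it was 1.37 (adjusted p = 0.0589).

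Among the peptides on which these enzymes act, few genes were called. Of 28 precursor genes 27 were tested, and the median log2 fold change was -0.067 with TGF-β, -0.20 with IL-4 + IL-13 and -0.23 with IL-6. TAC1, which encodes substance P, had normalized counts of 480 to 6337 in vehicle (median 1323) and 651 to 2663 with IL-4 + IL-13 (median 1419), and its log2 fold change was -0.18 (adjusted p = 0.923 in edgeR). CALCA, the main CGRP gene, was low, at 3.47 to 44.3 in vehicle and 5.65 to 55.5 with IL-4 + IL-13, with a log2 fold change of -0.11 (adjusted p = 0.978). CALCB, the other CGRP gene, had at most 9 raw counts in any library and a log2 fold change of -2.86 (adjusted p = 0.429). KNG1, the kininogen gene, had 0 to 2 raw counts per library and was not tested. EDN1, the source of endothelin-1, had a log2 fold change of -0.37 with IL-4 + IL-13 (adjusted p = 0.546).

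EDN2, the source of endothelin-2, was the 1 precursor called against vehicle by edgeR, of 27 tested and against 0.371% of all entries, with IL-4 + IL-13. DESeq2's Wald test called EDN2 there as well (adjusted p = 3.29e-05), and also EDN3 with TGF-β at a log2 fold change of -1.15 (adjusted p = 0.0473). It fell with IL-4 + IL-13 in all 6 batches, with 3.97 to 37.6 normalized counts (median 22.5) against 28.6 to 172 in vehicle (median 44.8). The groups overlapped, and the log2 fold change was -1.50 ± 0.28 (SE, adjusted p = 0.0113 in edgeR). The call was lost without batch 1 (adjusted p = 0.128), without batch 3 (0.0745) and without batch in the model (1). It held without the vehicle libraries of batches 2 and 4, at -1.62 (adjusted p = 0.0144). Between IL-4 + IL-13 and TGF-β, EDN2 and EDN3 were called in edgeR, of 27 tested and against 1.18% of all entries. EDN2 fell and EDN3 rose, by log2 fold changes of -1.77 (adjusted p = 0.000889) and 1.56 (adjusted p = 0.00988). The call of EDN3 was lost without batch 3 (adjusted p = 0.0876). Both calls were lost without batch in the model (adjusted p of 0.390 and 0.777).

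Among the 28 receptor genes, all tested, RAMP1 had been put on the list with its response to IL-4 + IL-13 in these libraries known, and it is described without a test. Of the other 27, none was called against vehicle with IL-4 + IL-13, beside 0.371% of all entries. The median log2 fold change of the whole list was -0.093. RAMP1 encodes the partner protein that makes CALCRL a CGRP receptor. Its normalized count was 54.7 to 202 in vehicle (median 125) and 183 to 303 with IL-4 + IL-13 (median 239). The treated library was the higher in all 6 batches, by 0.30 to 2.05 on the log2 scale, with the largest differences in batches 5 and 6 rather than in batches 3 and 4. The fitted log2 fold change was 1.04 ± 0.22 (SE), 1.18 without the vehicle libraries of batches 2 and 4 and 0.81 without batch 6. It was 1.10 against TGF-β and 1.05 against IL-6.

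RAMP3, which makes CALCRL an adrenomedullin receptor, rose relative to TGF-β at a log2 fold change of 1.38 (adjusted p = 0.000889 in edgeR), a call that was lost without batch in the model (adjusted p = 1). Between IL-4 + IL-13 and TGF-β, 1.18% of all entries were called. Against vehicle RAMP3 stood at -0.73 with TGF-β and 0.65 with IL-4 + IL-13 (adjusted p of 0.237 and 0.275 in edgeR). CALCRL itself had a log2 fold change of -0.12 with IL-4 + IL-13 (adjusted p = 0.834). TACR1, the substance P receptor, had one of -0.026 (adjusted p = 0.990). The bradykinin receptor genes BDKRB2 and BDKRB1 stood at -0.88 (adjusted p = 0.169) and -0.67 (adjusted p = 0.688), BDKRB1 with at most 28 raw counts in any library. None of the 6 genes of precursor processing was called in any comparison, beside at most 1.18% of all entries. Their median log2 fold change with IL-4 + IL-13 was -0.34.

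**Figure D5:**
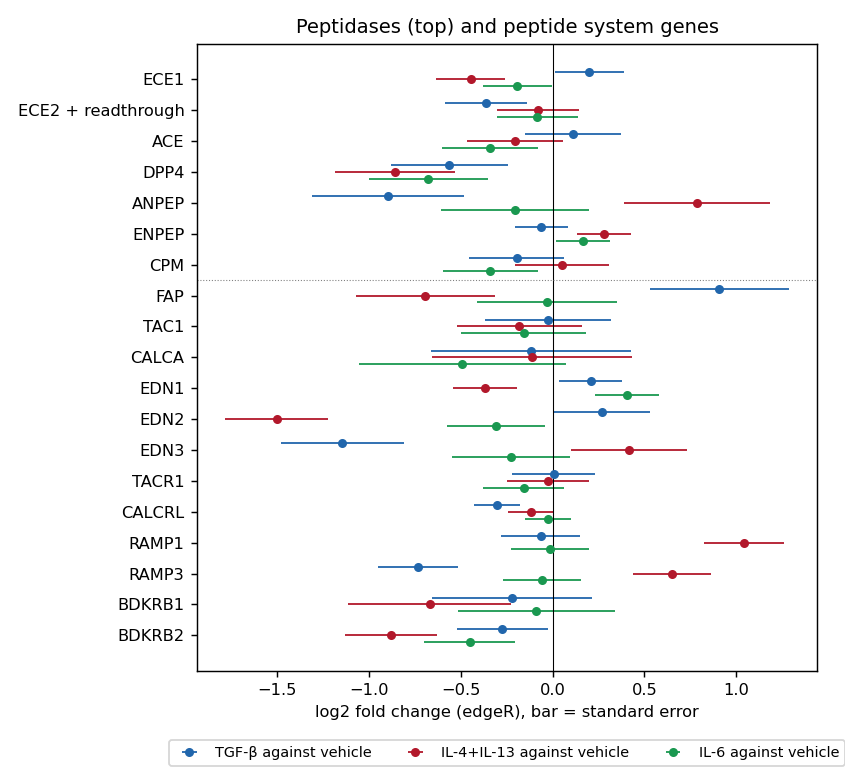
Log2 fold changes against vehicle fitted by edgeR, with the standard error as bar, for the peptidases other than MME (above the dotted line) and for FAP and genes of peptide precursors and receptors (below it). Blue is TGF-β, red is IL-4 + IL-13 and green is IL-6, and EDN2 at -1.50 is the red point farthest to the left and RAMP1 at 1.04 the one farthest to the right.

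The cell type markers of the cultures were compared in the same way beside these results. With IL-4 + IL-13 against vehicle none of the 10 neuron markers and none of the 10 mesenchymal markers was called, beside 0.371% of all entries. Still, all 10 mesenchymal markers had values below 0, with a median log2 fold change of -0.25. Their summed log2 level was 17.37 (16.57 to 17.84) with IL-4 + IL-13 and 17.75 (16.84 to 18.55) in vehicle, as median and range. The single call among the marker lists in that comparison was CDH1, an epithelial cadherin, which fell. With IL-6 against vehicle no marker was called, beside 0% of all entries. Between IL-4 + IL-13 and TGF-β, where 1.18% of all entries were called, COL1A1 and CDH1 were among the markers that fell. No marker of smooth muscle, endothelial cells, leukocytes, melanocytes, pluripotent cells or cycling cells was called in any comparison, beside at most 1.18% of all entries. All 3 cycling markers had values above 0 against vehicle, with median log2 fold changes of 0.55 with TGF-β, 1.00 with IL-4 + IL-13 and 0.92 with IL-6. Within batch 2 the summed neuron markers were 18.23 in the vehicle library and 17.41 to 17.53 in the other 3, and the summed markers of cycling cells were 10.72 against 13.27 to 13.71. The part of these differences in the ANPEP and ACE values of batch 2 was not tested.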

How the data were processed

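The deposited values were raw counts per gene for 24 libraries, which the authors had made from Illumina reads at a sequencing provider. Adapters were trimmed with Trimmomatic 0.30 and reads aligned to GRCh38.p14, per the labels. Which aligner and counter were used, and whether counting used strand, is not given in the sources used here.

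Libraries were grouped by the treatment and batch in the labels. Counts were tested with edgeR 4.0.16 (TMM, robust quasi-likelihood fit of treatment and batch to all 24 libraries, total count of at least 10, Benjamini-Hochberg adjustment), and standard errors were derived from the fold change and the F statistic. DESeq2 1.42.0 served as an alternative and gave the size factors for levels, log2(normalized count + 1). Levels per length used the 19273 symbols with GENCODE v44 exons, which held 90.74% of the counts.

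The members, the lists of peptidases, precursors, receptors, processing genes and markers, and the rule for similar genes (the 5 with the highest r) were chosen with earlier results of these data known. All members were named, and of each list the called genes and the main substance P, CGRP, kinin and endothelin genes. The batch label paired the libraries: deviations from the group means correlated at a median r of 0.565 in 36 same-batch pairs and -0.134 in 180 other pairs, while 4 of 24 libraries correlated better with another batch. Alternatives were other normalization, filters, DESeq2, no batch term, leaving out each batch or vehicle libraries, and summing ECE2 with its readthrough entry. P-values rest on how far treatment differences varied between batches of 1 line, after the batch levels themselves had been fitted. Promoter windows came from the RefSeq table of GRCh38.p14, which had none for ECE2 and IL13RA2. The result of 1 marker gene is not reported here.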

Additional observations from a re-analysis of the deposited data

Results flagged for a closer look

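In the levels of the 8 members, 32 groups of 6 libraries were examined for a library far from the others, of which chance gives about 1 in 20. The level of ECE2 in the TGF-β library of batch 1 was 3.46 on the log2 scale, 2.99 below the nearest of its group, and this is a library in which counts fell on both ECE2 and the readthrough entry. The level of ACE in the IL-4 + IL-13 library of batch 2 was 8.63, 1.62 below the nearest, and ACE was low in the other treated libraries of batch 2 as well. The level of CPM in the IL-6 library of batch 2 was 4.23, 1.07 below the nearest.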

How the results depend on the processing

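The MME difference between IL-4 + IL-13 and vehicle kept its direction in every alternative run, at log2 fold changes of 3.91 (without batch 3) to 4.55 (without batch 2). The number of the 7 other members called was 1 with IL-4 + IL-13 against vehicle without batch 2 or without its vehicle library, and ranged from 0 to 1 over the fits that left out a library or batch. Against TGF-β it also ranged from 0 to 1, and it was 0 with no replicate block, where the pairing by batch was left out. Over all entries that fit called 13 with IL-4 + IL-13 against vehicle, 49 against TGF-β and 13 against IL-6, where the model with batch called 109, 347 and 82. DESeq2 called 292, 627 and 255 there, and 234 with TGF-β and 120 with IL-6 against vehicle, where edgeR called 42 and 0. Leaving out a batch gave 60 to 122, 196 to 444 and 52 to 109, the IL-4 + IL-13 count was 72 without the IL-6 libraries, and the TGF-β count was 26 without the vehicle libraries of batches 2 and 4, 6 without the IL-6 libraries, 0 without batch in the model and 1 to 40 without a batch. The number of members past the batch test was 2 to 4 when a batch was left out, with 2 without batch 6. The cause of these changes was not tested.

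Signs turned only for values that had not been called. Leaving out a batch or the vehicle library of batch 2 gave ranges of -0.017 to 0.43 for ACE and -0.17 to 0.020 for ENPEP with TGF-β. With IL-4 + IL-13 they were -0.32 to 1.18 for ECE2, -0.46 to 0.12 for ACE and -0.053 to 0.21 for CPM, and with IL-6 -0.35 to 0.061 for ECE1 and -0.50 to 0.44 for ANPEP. Against IL-6, ACE ranged from -0.042 to 0.22 and was -0.0057 with no replicate block. Without the vehicle libraries of batches 2 and 4, an alternative chosen after seeing the data, ACE was 0.085 with IL-4 + IL-13 and ANPEP 0.23 with IL-6. ECE2 summed with its readthrough entry, also chosen after seeing the data, gave -0.36 with TGF-β, -0.080 with IL-4 + IL-13 and 0.28 between the cytokines. Low counts limit ANPEP, DPP4, CPM and ECE2, whose smallest raw counts were 8, 12, 16 and 0.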
